A study of Mus musculus with 8 samples.

Results

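The 6 microRNAs (miRNAs) described here are mmu-miR-146a-5p, mmu-miR-146b-5p, mmu-miR-155-5p and mmu-miR-147-3p, which are linked to the transcription factor NF-kB, and mmu-miR-210-3p and mmu-miR-210-5p, which are linked to the hypoxia-inducible factor HIF. They were picked by name from the 1881 mouse miRNAs on the array, and they were picked with earlier values of these same arrays in view, because none of them was clearly higher after kidney injury. The difference between the groups is therefore given for them as a size with its error and 95% interval, without a p-value. That choice can also make the upper ends of these intervals too low. Kidneys came from male C57BL/6 mice aged 9 weeks. In the ischemia-reperfusion injury group (IRI, 4 samples) the right kidney was taken out and the left was made ischemic by clamping for 25 or 45 min, with collection 12 or 24 h afterwards. Clamping and collection times are not given for single IRI samples, so a change limited to some of these times cannot be told apart. The sham group (4 samples) had a midline incision alone, so removal of the right kidney goes with the injury and the effects of each cannot be told apart. Nothing in the labels says that each sample was a separate animal, so the errors measure the spread between these samples, which may be technical.

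NF-kB is held in the cytoplasm of resting cells and enters the nucleus after signals from Toll-like and cytokine receptors. Among the genes it switches on are the precursors of miR-146a and miR-155. miR-146a and miR-146b dampen the same pathway by lowering the receptor adaptors IRAK1 and TRAF6, miR-155 promotes inflammatory activation of macrophages and lymphocytes, and miR-147 is induced in macrophages by Toll-like receptor ligands. miR-210 is the miRNA most regularly induced by HIF when oxygen is low, and it lowers proteins of mitochondrial iron-sulphur cluster assembly. Blood flow to a clamped kidney stops and then returns, and neutrophils and macrophages enter the tissue in the following hours, so both pathways are studied in this injury.

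The mature sequences show which members can be read apart and which share targets. RefSeq entries (GRCm38.p6) were matched for 5 of the 6 members, and mmu-miR-147-3p was not among them. Capitals mark the seed, bases 2 to 8 from the 5′ end, which pairs with target mRNAs.
miR-146a-5p: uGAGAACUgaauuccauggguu
miR-146b-5p: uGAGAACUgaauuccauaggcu
miR-155-5p: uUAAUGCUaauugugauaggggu
miR-210-3p: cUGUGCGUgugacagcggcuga
miR-210-5p: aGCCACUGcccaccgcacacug
miR-146a-5p and miR-146b-5p share the seed GAGAACU and 20 of their 22 bases. They differ by the substitutions G18A and U21C, with miR-146a-5p as the reference and positions counted from 1 at the 5′ end. The seeds of the other 3 members differ from it and from each other.

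In GRCm38.p6, miR-146a-5p lies at chr11:43374435-43374456 on the minus strand in Mir146, which overlaps no other annotated gene. miR-146b-5p lies at chr19:46342790-46342811 on the plus strand in Mir146b, which overlaps Gm36493. miR-155-5p lies at chr16:84714143-84714165 on the plus strand inside Mir155hg, the non-coding gene whose transcript is its precursor. Both arms of miR-210 lie in Mir210 on the minus strand of chromosome 7, the 3p arm at chr7:141221407-141221428 and the 5p arm at chr7:141221445-141221466. The gene of miR-147, Mir147, overlaps AA467197.

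The array reads an miRNA through short DNA probes that pair with its 3′ part. The probes of the miR-146 pair are shown because the bases that separate these miRNAs, in capitals, fall inside them.
Probe for miR-146a-5p: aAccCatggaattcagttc
Probe for miR-146b-5p: aGccTatggaattcagttc
Each covers bases 4 to 22 of its miRNA, and a second probe is 1 base shorter. The longer probe for miR-155-5p covers bases 6 to 23 and that for miR-210-3p bases 7 to 22.
Probe for miR-155-5p: acccctatcacaattagc
Probe for miR-210-3p: tcagccgctgtcacac
miR-147-3p was read by 4 nested probes of 15 to 18 bases, and miR-210-5p by 2 probes of 12 and 13 bases that cover none of its seed.
Longest probe for miR-147-3p: tagcagaagcatttccgc
Longer probe for miR-210-5p: cagtgtgcggtgg
Brightness depends on how well a probe pairs, so no level is compared between miRNAs below.

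All 8 arrays lay on 1 slide, where row 1 held the sham samples and row 2 the IRI samples, so slide row and group cannot be told apart. Each array carried 56430 spots, none of them saturated. At least 1 array detected 478 of the miRNAs, and all 8 arrays detected 317, where detected means a signal over 3 times its error in the scanner software. Each sham array detected 327 to 379 miRNAs, each IRI array 393 to 447. Before scaling, the 75th percentile of signal over the 317 miRNAs was 356 to 456 in sham and 445 to 562 in IRI. Signals below are scaled so that arrays can be compared. Each array was divided by this percentile relative to its geometric mean over the 8 arrays, a divisor of 0.79 to 1.25. Scaling matters for the members: the median log2 change of the 379 miRNAs tested was -0.11 with it and 0.17 without it. The labelled tissue carried its own miRNAs: all 5 kidney tubule miRNAs listed were detected on all 8 arrays.

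Of the 6 members, 3 were detected on all 8 arrays, 1 on a single array, and 2 on none. miR-146a-5p, miR-155-5p and miR-210-3p gave a signal on every array, miR-146b-5p was detected only on IRI replicate 1, and miR-147-3p and miR-210-5p were detected nowhere. The same pathway thus includes measured and unmeasured members, and a lack of signal for the latter gives no size of change.

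miR-146a-5p, the NF-kB target that feeds back on the pathway, lay far above background. Its scaled signal was 185, 331, 144 and 177 in sham replicates 1, 2, 3 and 6. In IRI replicates 1, 2, 3 and 18 it was 175, 124, 125 and 132. Sham replicate 2 stood highest, and IRI replicate 1 lay within the sham range, so the groups overlapped. The mean was 209 ± 83.2 in sham and 139 ± 24.2 in IRI (SD, n = 4 each), and the coefficient of variation was 39.7% in sham against 17.4% in IRI. The log2 change, IRI minus sham, was -0.53 ± 0.25 (SE), a fold of 0.691 with a 95% interval of 0.460 to 1.04. A rise of more than 1.04-fold thus lay outside the interval. Unscaled, the log2 change was -0.23 and the upper end 1.40-fold, and with scaling by labelling spike-ins, RNAs added in fixed amount, they were -0.21 and 1.41-fold.

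The spread of miR-146a-5p rested mainly on sham replicate 2. Without that array the change was -0.28, with an upper end of 0.08 on the log2 scale. Both of its probes were highest on that array, at 253 and 77.9, and the probes gave changes of -0.56 and -0.46. Repeat spots of a probe on an array varied by a median of 7.25%, well under the 39.7% between sham samples. Of the 379 miRNAs tested, 40 had a larger standard error than miR-146a-5p.

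miR-155-5p, which promotes inflammatory activation, was detected on all 8 arrays. Its scaled signal was 57.4, 50.5, 52.8 and 49.95 in sham replicates 1, 2, 3 and 6. In IRI replicates 1, 2, 3 and 18 it was 58.2, 50.1, 49.3 and 64.4. IRI replicate 18 was the highest and IRI replicate 3 the lowest of all 8 arrays, and the groups overlapped. The mean was 52.7 ± 3.38 in sham and 55.5 ± 7.14 in IRI (SD, n = 4 each). The log2 change was 0.07 ± 0.10 (SE), a fold of 1.05 with a 95% interval of 0.892 to 1.23, so a rise of more than 1.23-fold lay outside the interval. Without IRI replicate 18 the log2 change was -0.0048.

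Leaving out the scaling raised the log2 change of the 3 detected members by the same amount, and for miR-155-5p it took the interval above 0. Unscaled, its signal was 58.4, 49.6, 43.7 and 39.7 in sham and 69.1, 62.9, 50.8 and 63.9 in IRI, in the same replicate order. The groups still overlapped, since IRI replicate 3 lay below sham replicate 1. IRI was higher within each of the 4 slide columns, which hold 1 array of each group. The 75th percentile used for scaling was also higher in IRI in each column. From column 1 to column 4 it was 456, 441, 371 and 356 in sham and 532, 562, 462 and 445 in IRI. The unscaled log2 change was 0.37, with a 95% interval of 0.03 to 0.72 that lay above 0, a fold of 1.29 and an upper end of 1.64-fold. Scaling by the spike-ins gave 0.39 (0.08 to 0.70), a fold of 1.31. The median over all miRNAs tested rose with these settings too, to 0.17 and 0.19.

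miR-210-3p, the HIF-linked arm, was detected on all 8 arrays at the edge of background. Its scaled signal was 34.9, 31.7, 33.3 and 33.2 in sham replicates 1, 2, 3 and 6. In IRI replicates 1, 2, 3 and 18 it was 30.9, 31.1, 21.8 and 32.9. IRI replicate 3 was the lowest of all 8 arrays, and the other IRI arrays lay just under or within the sham range. The mean was 33.3 ± 1.30 in sham and 29.2 ± 4.99 in IRI (SD, n = 4 each). The log2 change was -0.21 ± 0.13 (SE), a fold of 0.866 with a 95% interval of 0.703 to 1.07.

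A rise of miR-210-3p of more than 1.07-fold lay outside that interval. Without IRI replicate 3 the change was -0.07, with an interval of -0.21 to 0.07 on the log2 scale. The direction followed the scaling: unscaled, the change was 0.10 with an interval of -0.33 to 0.53, and with the spike-ins it was 0.12. Its 2 probes gave -0.14 and -0.27, and the latter had 1 array at its floor.

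**Figure D1:**
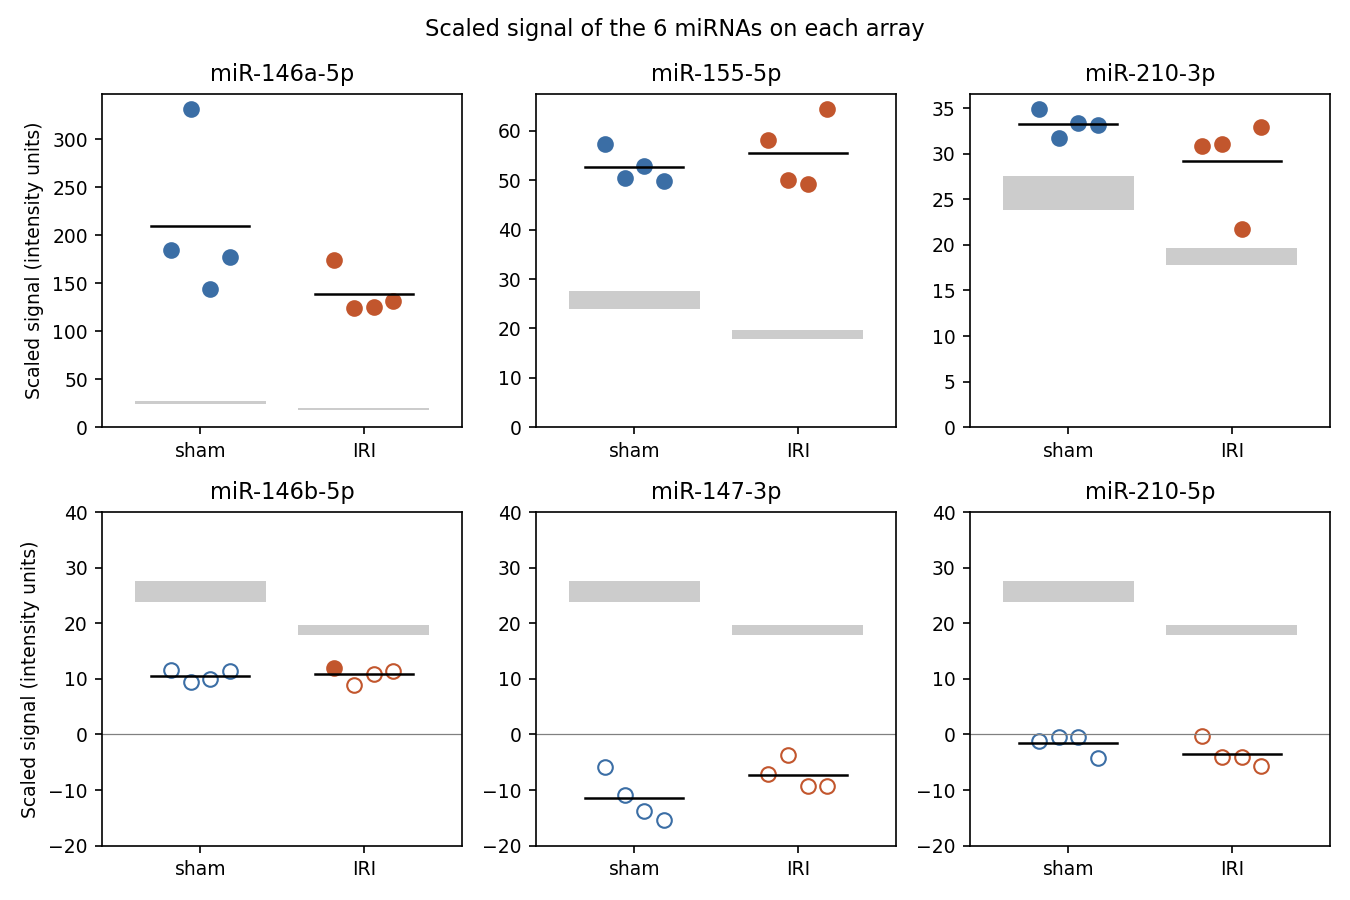
Scaled signal (intensity units, linear axis) of each of the 6 miRNAs on the 4 sham and 4 IRI arrays. Filled points were detected and open points were not, horizontal lines are group means, and grey bands span the lowest signal of a miRNA well above background on the arrays of that group. miR-146a-5p lies far above the band, miR-210-3p just above it, and the lower 3 miRNAs below it.

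How far each member stood above background limits how large a fall the array could have shown and how well a fold is measured. A miRNA was taken as well above background on an array where most of its spots carried the scanner's flag for it. The lowest scaled signal of any such miRNA ran from 23.9 to 27.6 among sham arrays and from 17.8 to 19.6 among those of IRI. Unscaled, these limits were 19.7 to 26.0 in sham and 17.7 to 24.6 in IRI, which overlap, so the gap came with the scaling. The multiples of the limit given next are the same with or without scaling. miR-146a-5p was well above background on all 8 arrays, at 5.23 to 13.9 times that limit. miR-155-5p was so on 3 sham arrays and 4 IRI arrays, at 1.92 to 2.25 times the limit in sham and 2.55 to 3.61 times in IRI. miR-210-3p was so on 0 sham arrays and 3 IRI arrays, with 2 to 14 of 30 spots passing on sham arrays, although the software detected it on all 8. Its fold therefore compares signals at the edge of background.

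Negative-control spots, which match no miRNA, gave a second measure of background. They averaged 2.23 to 4.15 unscaled, with an SD of 2.79 to 3.01 on each array. Per probe, miR-146a-5p lay 19.2 to 55.1 of these SDs above their mean, miR-155-5p 5.36 to 11.1 and miR-210-3p 2.70 to 5.59. Repeat spots of a probe varied by a median of 16.5% for miR-155-5p and 24.2% for miR-210-3p. A constant background left in the signal shrinks the fold of a dim miRNA, so the negative-control mean was also subtracted from every probe, a step chosen after the data were seen. This widened the intervals without bringing the upper end to 2-fold: unscaled, where it was highest, it was 1.81-fold for miR-155-5p and 1.62-fold for miR-210-3p.

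miR-146b-5p, which shares the seed of miR-146a-5p and acts on the same adaptors, was near background. Its scaled signal was 11.6, 9.36, 9.97 and 11.3 in sham replicates 1, 2, 3 and 6. In IRI replicates 1, 2, 3 and 18 it was 12.0, 8.95, 10.9 and 11.5. The groups overlapped over nearly their whole range, and every array lay below the limit for a signal well above background, at 0.362 to 0.457 of it in sham and 0.456 to 0.651 in IRI. On IRI replicate 1, where the software detected it, the signal was 3.13 times its error, just past the threshold of 3. Whether miR-146a-5p binds the miR-146b-5p probes was not tested.

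miR-147-3p, the macrophage-induced miRNA, had a background-subtracted signal below 0 on every array. Its scaled signal was -5.80, -10.9, -13.8 and -15.4 in sham and -7.09, -3.63, -9.24 and -9.27 in IRI, in the replicate order used above. No array stood out, and per probe the signals lay under the negative-control mean. miR-210-5p, the other arm of the HIF-linked precursor, gave -1.24, -0.454, -0.501 and -4.23 in sham and -0.238, -3.98, -4.06 and -5.62 in IRI. Neither had a single spot well above background. With no measured level in sham, no size of rise can be excluded for miR-146b-5p, miR-147-3p or miR-210-5p. What the arrays show is that their IRI signals stayed under 17.8 to 19.6, the range of the limit on those arrays.

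The opposite arms of the member precursors were not detected either. For miR-146a-3p, miR-146b-3p, miR-155-3p and miR-147-5p, the scaled signal lay between -13.0 and -0.492 over the 32 pairs of arm and array, of which 0 were detected. These arms are usually degraded once the precursor is cut.

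The members were set against the whole array with limma, a linear model with a moderated variance (Benjamini-Hochberg threshold 0.05, for either direction). Of 379 miRNAs tested, 46 were higher in IRI (12.1%) and 139 were lower (36.7%). Of the members, 3 entered the fit and 0 were called. Because the members were chosen for this contrast, nothing is read from that count. Intervals about as wide as those of miR-155-5p and miR-210-3p were common. The median distance from centre to end over the miRNAs tested was 0.28 on the log2 scale. The interval of miR-146a-5p, -1.12 to 0.05, was wider, and 40 of the 379 had a larger standard error. Of the 379, 327 had an upper end below 2-fold.

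**Figure D2:**
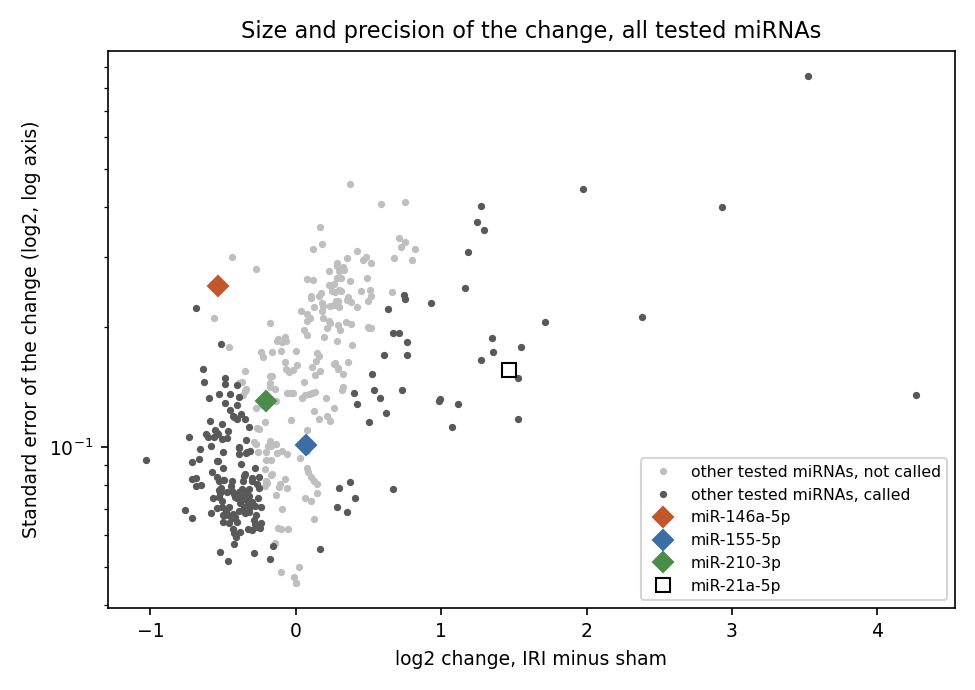
Log2 change, IRI minus sham (horizontal axis), against its standard error (vertical axis, log scale) for the 379 miRNAs tested. Dark points were called and light points were not; diamonds are the 3 members and the square is miR-21a-5p. miR-155-5p sits near 0 with a standard error of 0.10, while miR-146a-5p sits at -0.53 with one of 0.25.

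For the 3 detected members, the size of rise that can be excluded stayed below 2-fold under every other processing tried. For miR-146a-5p the change was below 0 in 25 of 25 other settings, from -0.68 to -0.21, and the highest upper end was 1.56-fold. That end came from blocking by replicate number, with replicates 1, 2 and 3 of each group alone. For miR-155-5p the change ran from -0.11 to 0.41, above 0 in 20 settings and below 0 in 5, and the highest upper end was 1.81-fold. For miR-210-3p it ran from -0.32 to 0.12, below 0 in 22 settings and above 0 in 3, and the highest upper end was 1.62-fold. The interval lay wholly below 0 in 3 settings each for miR-146a-5p and miR-210-3p. For both, these included normexp background correction, which added an offset of 50 to every spot. Such an offset shrinks folds and intervals, most for dim miRNAs. For miR-155-5p the interval lay wholly above 0 in 2 settings, those given above.

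**Figure D3:**
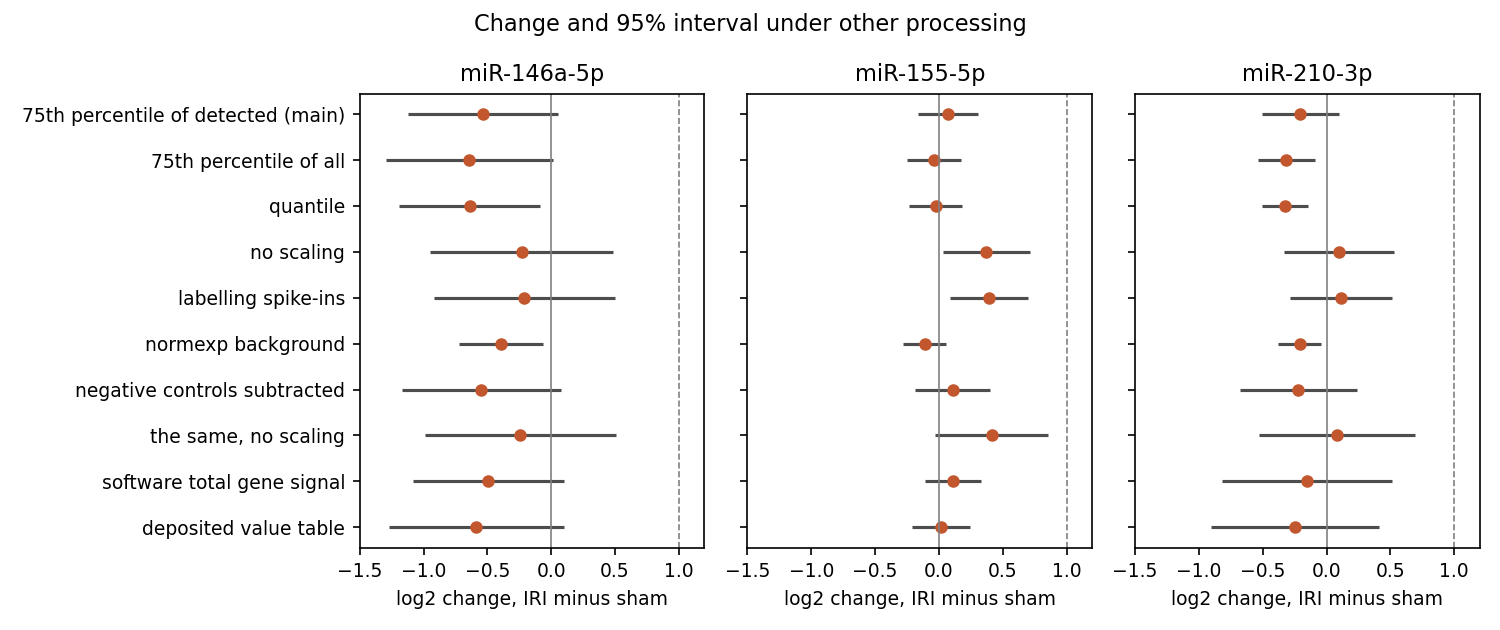
Log2 change, IRI minus sham, of miR-146a-5p, miR-155-5p and miR-210-3p with its 95% interval under the scaling used in the text and 9 other ways of processing. The solid line marks no change and the dashed line a 2-fold rise. No interval reaches the dashed line, and the intervals of miR-155-5p without scaling and with spike-ins lie above 0.

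Within slide columns 1 to 4, the scaled log2 difference of miR-146a-5p was -0.08, -1.42, -0.21 and -0.43. The second column holds sham replicate 2. For miR-155-5p the differences were 0.02, -0.01, -0.10 and 0.37, and for miR-210-3p -0.17, -0.03, -0.61 and -0.01. The same sign in 4 of 4 columns was seen for miR-146a-5p and miR-210-3p when scaled. Unscaled, it was seen for miR-155-5p instead, at 0.24, 0.34, 0.22 and 0.69. Unscaled, miR-146a-5p gave 0.14, -1.07, 0.11 and -0.11 and miR-210-3p gave 0.05, 0.32, -0.30 and 0.31, with mixed signs. The share of all miRNAs tested with the same sign in 4 of 4 columns was not computed, so nothing is read from these signs.

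**Figure D4:**
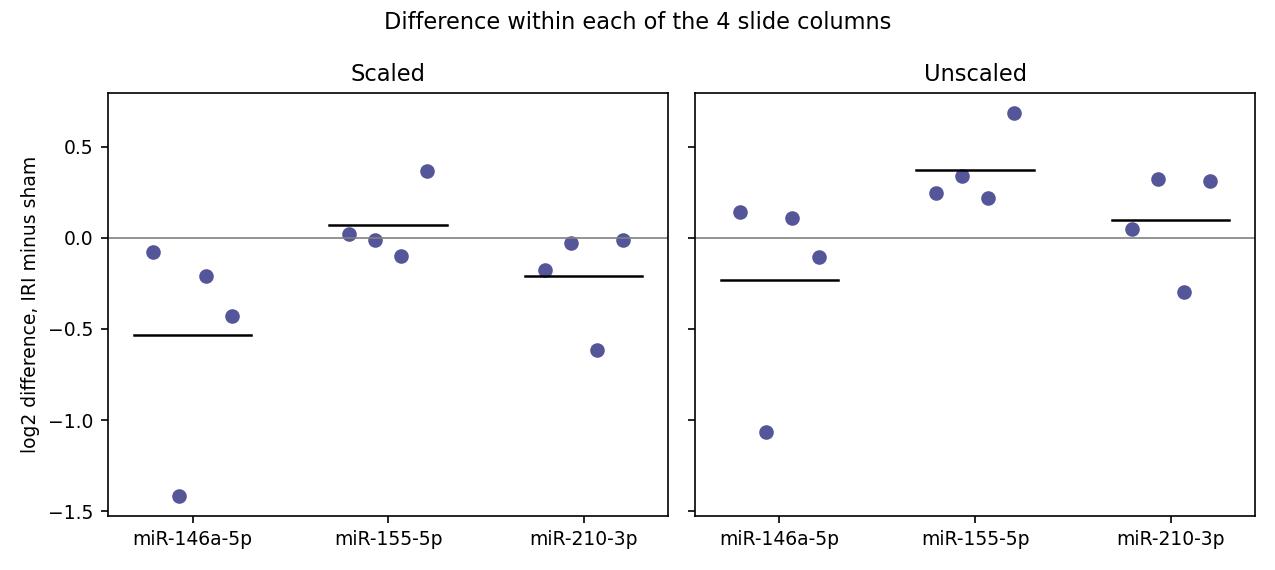
Log2 difference, IRI minus sham, within each of the 4 slide columns for the 3 members detected on all arrays, with scaled signals on the left and unscaled signals on the right. Points run from column 1 to column 4 within each miRNA, and lines are means. The points of miR-155-5p straddle 0 when scaled and lie above 0 when unscaled.

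Over the 8 arrays, Pearson's r of the log2 scaled signals was -0.14 between miR-146a-5p and miR-155-5p, 0.32 between miR-146a-5p and miR-210-3p, and 0.41 between miR-155-5p and miR-210-3p. The tested miRNAs most like miR-146a-5p were miR-181d-5p (r = 0.78), miR-34a-5p (0.72) and miR-350-3p (0.68). Those most like miR-155-5p were miR-7009-5p (0.80), miR-714 (0.79) and miR-3472 (0.78), and those most like miR-210-3p were miR-712-5p (0.91), miR-141-3p (0.88) and miR-423-5p (0.88). These values describe the 8 arrays, which share a slide and a scaling, and carry no test.

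Among other miRNAs linked to NF-kB, calls were made in both directions. Of 14 listed, 12 were tested, of which 3 were higher in IRI, 4 were lower and 5 were not called, against 12.1% higher and 36.7% lower over all miRNAs tested. The list's median log2 change was -0.11, the same as that of all 379 miRNAs tested. miR-21a-5p, an injury-induced miRNA that restrains inflammatory signalling, rose from 7180 ± 408 in sham to 20222 ± 4672 in IRI (SD, n = 4 each; log2 change 1.47 ± 0.16, SE; adjusted p = 0.00063, limma). miR-21a-3p, the other arm of that precursor, had no detected signal in sham (0 of 4 arrays, against 4 of 4 in IRI) and exceeded sham by at least 13.1-fold (adjusted p = 6.7e-07, limma). That bound takes the sham level as the lowest signal well above background or, where higher, the miRNA's own. By the same bound miR-132-3p, which is induced in stimulated monocytes and endothelium, exceeded sham by at least 2.13-fold (adjusted p = 0.00029, limma). With normexp background correction and its offset it was not called (adjusted p = 0.096, limma). In the main fit, signals below the floor of 17.3 were set to it. This held for every sham signal of miR-21a-3p, the highest being 14.1, and for at least the lowest of miR-132-3p, 14.2. The main adjusted p of miR-21a-3p thus holds no spread between sham arrays, and that of miR-132-3p may understate it. Neither is a test of the bound.

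The 4 NF-kB-linked miRNAs that were lower were miR-181b-5p, which lowers an importin that carries NF-kB into the nucleus, miR-212-3p, from the same precursor cluster as miR-132, miR-301a-3p, which lowers a repressor of NF-kB, and miR-10a-5p, which restrains NF-kB in endothelium. Their log2 changes were -0.59 ± 0.12, -0.54 ± 0.08, -0.34 ± 0.08 and -0.29 ± 0.07 (SE), with adjusted p of 0.0047, 0.0016, 0.0080 and 0.0083 in limma. These falls depended on the scaling. Without scaling, 3 of the 12 were higher and 0 lower, with a list median of 0.19, and with the spike-ins the counts were again 3 and 0.

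The hypoxia-linked list held no called rise. Of 14 miRNAs, all tested, 0 were higher in IRI, 10 were lower and 4 were not called, against 12.1% higher and 36.7% lower over all miRNAs tested. The median of their log2 changes was -0.38. Neither this list nor the NF-kB-linked one sets a direction for its miRNAs, so the counts do not measure the response of a pathway. The 6 largest falls were those of miR-107-3p (-0.69 ± 0.08, SE), miR-181b-5p (-0.59 ± 0.12), miR-26b-5p (-0.53 ± 0.08), miR-26a-5p (-0.50 ± 0.09), miR-103-3p (-0.48 ± 0.07) and miR-322-5p (-0.39 ± 0.08), with adjusted p between 0.00088 and 0.0047 in limma. miR-107-3p and miR-103-3p are near-identical miRNAs that act on Dicer and energy metabolism, and miR-322-5p is reported to stabilise HIF under low oxygen. miR-181b-5p stands on both lists. Here too the calls depended on the scaling: unscaled, 0 were higher and 0 lower with a median of -0.08, and with the spike-ins 1 was higher and 0 lower with a median of -0.06. Both medians lay below those of all miRNAs tested, 0.17 and 0.19.

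**Figure D5:**
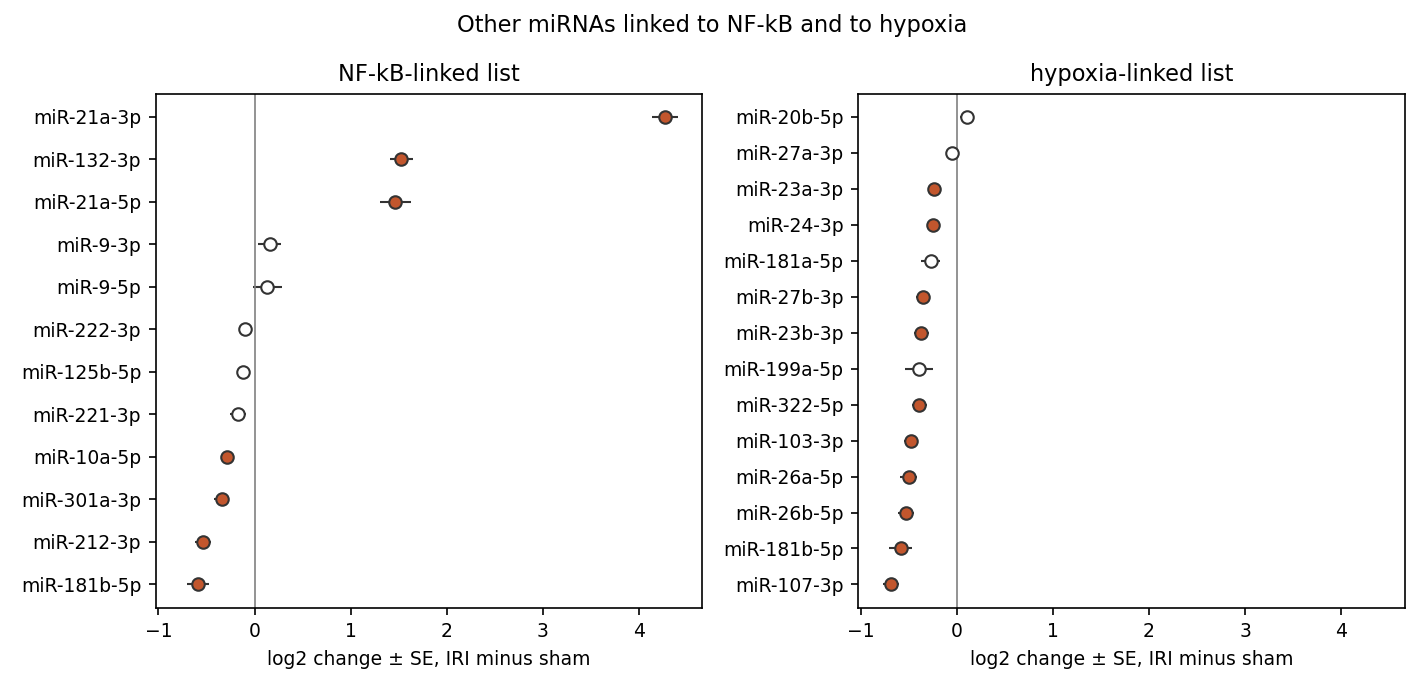
Log2 change, IRI minus sham, with its SE for the tested miRNAs of the NF-kB-linked list (12) and the hypoxia-linked list (14), each ordered by size. Filled points were called and open points were not. Points for miR-21a-3p and miR-132-3p rest on a floor in sham and are no measured size. In the NF-kB-linked list 3 stand to the right, and in the hypoxia-linked list no called point lies above 0.

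Several cell types in injured kidney can carry the members, above all leukocytes, which are rich in miR-146a and miR-155. miR-147 is induced in macrophages once they are stimulated, as stated above. Of the 5 leukocyte miRNAs listed, 1 was higher and 0 were lower, with a median log2 change of 0.19, against 12.1% higher and 36.7% lower over all miRNAs tested. With quantile normalization, and also without IRI replicate 1, 1 was higher and 2 were lower, miR-150-5p and miR-342-3p. Scaling by the 75th percentile over all miRNAs, or normexp, gave 1 higher and 1 lower. So did a floor at the 10th percentile, and a fit to only the miRNAs detected on all 8 arrays. The called one was miR-223-3p of neutrophils and other myeloid cells, at 127 ± 8.55 in sham and 370 ± 74.0 in IRI (SD, n = 4 each; log2 change 1.53 ± 0.15, SE; adjusted p = 0.00049, limma). The lymphocyte-rich miR-150-5p had a change of -0.57 ± 0.21 and was not called (adjusted p = 0.057). The summed signal of the 5, in which brighter miRNAs weigh more, was 569 to 731 in sham and 764 to 1115 in IRI, without overlap. Without miR-223-3p it was 452 to 603 in sham and 494 to 737 in IRI, which overlap. The part of this in the members' values was not tested.

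Other cell-type lists moved with the groups as well. The 3 red blood cell miRNAs were called higher in IRI. Their summed signal, mostly that of miR-451a, was 41.1 to 902 in sham and 2940 to 4087 in IRI. With normexp, whose offset shrinks the folds of dim miRNAs, 2 of the 3 were called, without miR-486a-5p (adjusted p = 0.24, limma). Over all miRNAs of the array 2 of the 3 were called, without miR-451a (adjusted p = 0.13, limma). All 5 kidney tubule miRNAs and both endothelial miRNAs were lower, with medians of -0.47 and -0.35, but without scaling 0 of the 5 and 0 of the 2 were called, with medians of -0.17 and -0.05. In whole kidney RNA, fewer cells of a type and less of a miRNA per cell cannot be told apart. The part of these shifts in the members' values was not tested.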

How the data were processed

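Total RNA from 30 mg of kidney was sampled, and 100 ng was labelled with Cy3 for 1-colour Agilent arrays of mouse miRNAs, per the labels' protocols. The deposited scanner files give the linear intensity of each spot, background-subtracted by the authors with Agilent Feature Extraction 12.0.3.1 and not normalized between arrays, per the file headers, which name genome build mm9. The deposited value table gives each miRNA's linear ratio. How it was computed, its scaling and its centring are unknown here, and it served only as an alternative.

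Control and outlier spots (1422 to 1560 per array) were left out. For every probe the mean processed signal of its spots was taken, and the probes of each miRNA were added up. Scaling used the array's 75th percentile of the 317 miRNAs with detection on 8 of 8 arrays, a floor of 17.3 was set (the 5th percentile of detected signals), and log2 was taken. The model was fitted to 379 miRNAs, those with detection on 4 of 4 arrays in sham, IRI or both, using limma 3.58.1 (R 4.3.3; lmFit, then eBayes, without covariates), and 95% intervals come from that fit. The scripts were tested on simulated data. With 4 arrays a group, their number sets the precision. Groups and replicate numbers came from the sample titles, and slide rows and columns from the numbering of the deposited files.

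The members, the lists and the alternatives were chosen with earlier results of these data known. Besides the members and their opposite arms, the text names the 3 tested miRNAs that correlate best with each detected member, up to 6 called miRNAs per NF-kB-linked, hypoxia-linked and leukocyte list, and miR-21a-5p. miR-150-5p, miR-342-3p, miR-451a and miR-486a-5p were added after their values were seen. Alternatives changed the scaling, the background, the floor, the filter, the variance model and the blocks, used the software's own total signal or the deposited table, or left out each array in turn. Mature sequences and positions are RefSeq's for GRCm38.p6, not for the build of the files.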

Additional observations from a re-analysis of the deposited data

Results flagged for a closer look

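In the IRI group, miR-210-3p of IRI replicate 3 stood apart, at a scaled signal of 21.8 against 30.9 to 32.9 on the other 3 IRI arrays. On the log2 scale its gap to the nearest array was 0.847 of the group's whole range, above Dixon's 95% critical value for 4 samples. On the linear scale of these signals it was 0.820, below that value. Chance passes this value in about 5% of groups, and 6 groups of signals were examined. Unscaled, that array was also the lowest of the IRI group, at 22.5.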

How the results depend on the processing

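The direction of miR-146a-5p held in all 25 alternatives, while miR-155-5p and miR-210-3p took either sign. Alternatives were planned except those subtracting negative controls, which were added after seeing the data. Without scaling, the upper end of the 95% interval (log2) was 0.49 for miR-146a-5p, 0.72 for miR-155-5p (change 0.37) and 0.53 for miR-210-3p (change 0.10), and 1 miRNA was called lower. With spike-in scaling these were 0.50, 0.70 (0.39) and 0.52 (0.12), with 72 miRNAs higher and 2 lower. With negative controls subtracted and no scaling they were 0.51, 0.86 (0.41) and 0.70 (0.083), with 1 lower. With normexp and its offset of 50, 18 miRNAs were higher, and miR-155-5p had a change of -0.11 with an upper end of 0.059. The upper end of miR-210-3p was -0.14 with quantile normalization, 0.51 with the software's total signal and 0.41 with the deposited table. Over all 1881 miRNAs, 21 were higher and 90 lower. The cause of these shifts was not tested.

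Whether the replicate numbers pair the samples is not known. Deviations of same-numbered arrays correlated at -0.16, -0.20 and 0.24. These arrays also shared slide columns 1, 2 and 3, so number and column cannot be told apart. The fit with the replicate number as a block used replicates 1, 2 and 3 of each group alone, without sham replicate 6 and IRI replicate 18. Its upper end was 0.64 for miR-146a-5p and 0.12 for miR-155-5p, and 35 miRNAs were higher and 127 lower. Leaving out 1 array at a time gave changes of -0.68 to -0.28 for miR-146a-5p, -0.0048 to 0.12 for miR-155-5p and -0.27 to -0.07 for miR-210-3p. Upper ends then ran from -0.09 to 0.21, 0.20 to 0.37 and 0.05 to 0.17, and counts from 36 to 64 higher and 114 to 144 lower. Counting a member as detected with at least 1 spot well above background gave 8, 1, 8, 0, 8 and 0 arrays, as before, but moved the single array of miR-146b-5p from IRI replicate 1 to IRI replicate 3. Signals near background limit what can be said of miR-210-3p, and those of 3 members allow no fold.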
